A study of Danio rerio with 8 samples.

Results

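The genes described here are 8 zebrafish transcription factors of the eye field, the retinal progenitors and the photoreceptors: *pax6a*, *pax6b*, *six3b*, *rx1*, *rx2*, *atoh7*, *vsx1* and *crx*. They were chosen by name, and all 8 were present among the 31172 genes of both count tables and had a mean of at least 10 normalised counts in each. The study sequenced RNA from 8 AB/TU libraries, 1 per condition, in 4 comparisons that asked which genes respond to loss of Hdac1, a histone deacetylase, or of the Cyp26 enzymes, which degrade retinoic acid (RA). At 48 hpf, whole *crg* mutants, which carry a chemically induced splice-site allele of *hdac1*, were set beside WT siblings. Whole embryos deficient in Cyp26a1 and Cyp26c1, called Cyp26-deficient, were set beside a WT control. At 28 hpf, *nkx2.5*:ZsYellow+ cells were sorted from Hdac1-depleted and from Cyp26-deficient embryos, each with a WT control. By the study's methods, depletion was by morpholino (MO) and every injection included a *p53* MO. The labels do not say how many embryos went into a library, nor whether the controls were injected. The sort gate was a reporter for *nkx2.5*, a gene of the cardiac and pharyngeal lineages and not of the retina.

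The vertebrate eye field is set up in the anterior neural plate by *pax6*, *six3* and *rx* genes, which keep optic vesicle cells as dividing retinal progenitors. As those cells leave the cycle, further factors direct their fates, with *atoh7* acting in the first-born retinal ganglion cells, *vsx1* in bipolar cells and *crx* in photoreceptors. Crx is known for switching on opsin and phototransduction genes and is also active in the pineal organ, so that eye and pineal RNA cannot be told apart in a whole embryo. In such bulk samples fewer cells of a type and less RNA per cell cannot be told apart either.

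The libraries held 11070144 to 30257543 gene counts, and values below are normalised counts, the deposited counts divided by a size factor per library. With 1 library per condition, no difference has a replicate check and no p-value was computed. Fold changes carry a 95% exact interval of the counting error alone, and a gene was called raised or lowered past 2-fold. The targeted *hdac1* stood at 2760 normalised counts in *crg* mutants against 6747 in WT siblings, and at 27692 against 12109 in Hdac1-depleted sorted cells. In Cyp26-deficient embryos and their WT control *hdac1* was at 9570 against 12174, and in the sorted Cyp26 pair at 14965 against 12244. Its RNA was thus higher, not lower, in the cells labelled Hdac1-depleted. There the RNA level is no check of the MO, which by the study inhibits translation of Hdac1. A Western blot in the study showed loss of WT Hdac1 protein in MO-injected embryos. RA-responsive *cyp26a1* was at 3123 against 309 in Cyp26-deficient whole embryos and 1879 against 146 in Cyp26-deficient sorted cells. The other targeted gene, *cyp26c1*, was at 4170 against 440 and at 23887 against 5204 in the same order. Both targeted RNAs were thus higher, and their levels give no measure of the loss of Cyp26 protein. The 13 cardiac and pharyngeal markers summed to between 38867 and 53183 in the sorted libraries, and none was at 0 in any library. In whole embryos they summed to between 3684 and 7612, on a separate scale, so the 2 ranges give no measured enrichment.

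In *crg* mutants *vsx1* and *crx*, the factors of bipolar cells and photoreceptors, fell 5.44-fold and 13.6-fold, while *rx1*, *atoh7* and *pax6b* rose 3.19-fold, 2.30-fold and 2.21-fold against WT siblings. In Cyp26-deficient whole embryos the same pair fell, *vsx1* 3.50-fold and *crx* 3.14-fold, and the other 6 factors stayed within 2-fold. In Hdac1-depleted sorted cells *rx1*, *rx2* and *vsx1* fell and *atoh7* rose. In Cyp26-deficient sorted cells only *crx* passed 2-fold of the 8, and it fell.

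**Figure D1:**
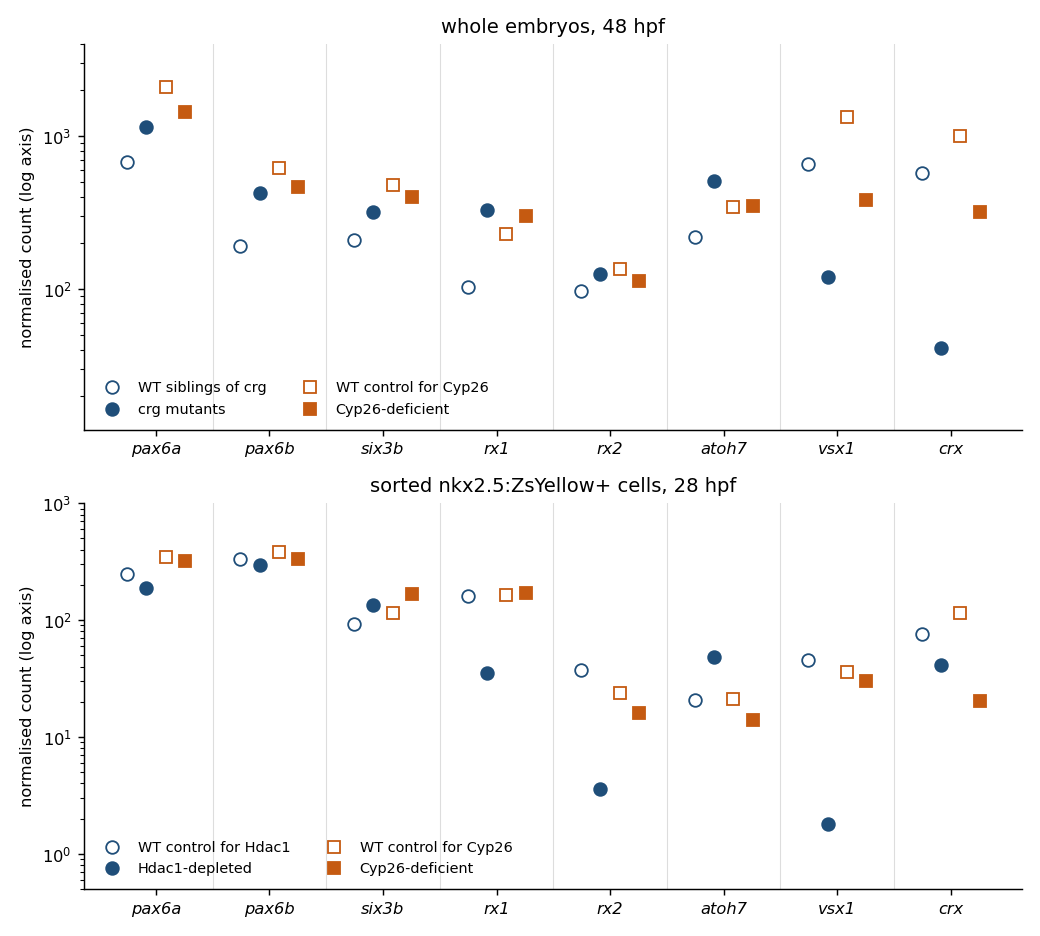
Normalised count (log axis) of each of the 8 factors in every library, with whole embryos at 48 hpf above and sorted cells at 28 hpf below. Each symbol is 1 library, open for WT and filled for mutant or depleted embryos. The filled symbols of *vsx1* and *crx* lie below both WT symbols in whole embryos, and those of *rx1*, *rx2* and *vsx1* in Hdac1-depleted cells lie below all other sorted libraries.

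The homeobox gene *crx* lies at chr5:38532881-38536606 on the plus strand of Zv9, the assembly the tables use. It had 573 normalised counts in WT siblings (319 counts), 41.1 in *crg* mutants (29 counts), 995 in the WT control for Cyp26 (1280 counts) and 316 in Cyp26-deficient embryos (626 counts). Both WT libraries were thus higher than both mutant or deficient libraries, and *crg* mutants were by far the lowest. The log2 fold change was -3.77 in *crg* mutants (95% interval of the fold, 9.52 to 21.1) and -1.65 in Cyp26-deficient embryos (2.86 to 3.47). All 3 of its exon blocks, stretches of merged annotated exons, fell past 2-fold in both comparisons, from -4.19 to -3.26 in *crg* mutants and from -1.87 to -1.62 in Cyp26-deficient embryos.

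The bipolar cell gene *vsx1* lies at chr17:20893556-20896258 on the minus strand. Its normalised counts were 652 in WT siblings, 119 in *crg* mutants, 1340 in the WT control for Cyp26 versus 382 in Cyp26-deficient embryos. As for *crx*, the 2 WT libraries were the highest of the 4. The log2 fold change was -2.44 in *crg* mutants (95% interval of the fold, 4.31 to 7.03) and -1.81 in Cyp26-deficient embryos (3.22 to 3.83). All 5 exon blocks fell past 2-fold in each, between -2.88 and -2.04 in *crg* mutants and between -1.88 and -1.56 in Cyp26-deficient embryos.

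Of the retinal homeobox pair, *rx1* (chr22:4640467-4648012, minus strand) had 102 normalised counts in WT siblings, 329 in *crg* mutants, 228 in the WT control for Cyp26 versus 298 in Cyp26-deficient embryos. The *crg* library was the highest of the 4 and its WT siblings the lowest. The log2 fold change was 1.67 in *crg* mutants (95% interval of the fold, 2.395 to 4.37) and 0.39 in Cyp26-deficient embryos, and in *crg* mutants 3 of the 4 exon blocks rose past 2-fold. Its paralogue *rx2* (chr2:56045666-56074438, minus strand), which like *rx1* is expressed in the optic vesicle, had 97.0, 125, 135 and 113 normalised counts in the same order. These *rx2* values differed little, with log2 fold changes of 0.36 (interval of log2, -0.14 to 0.88) and -0.26 (-0.56 to 0.03).

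The proneural gene *atoh7*, needed for retinal ganglion cells, is a gene of 1 exon at chr13:25673571-25674614 on the plus strand. It had 219 normalised counts in WT siblings, 506 in *crg* mutants, 342 in the WT control for Cyp26 versus 351 in Cyp26-deficient embryos. The *crg* library was the highest, and the Cyp26 pair was nearly level, with log2 fold changes of 1.20 (interval, 0.91 to 1.52) and 0.04 (-0.14 to 0.21).

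The paired-box genes *pax6a* (chr25:15289718-15409410, minus strand) and *pax6b* (chr7:16636712-16662410, plus strand), which act in eye, brain and pancreas, followed each other. For *pax6a* the normalised counts were 679 in WT siblings, 1138 in *crg* mutants, 2100 in the WT control for Cyp26 versus 1438 in Cyp26-deficient embryos. For *pax6b* they were 192, 427, 617 and 462 in that order. Both genes were thus lowest in WT siblings and highest in the other WT library. The log2 fold changes in *crg* mutants were 0.74 for *pax6a* and 1.15 for *pax6b*, and in Cyp26-deficient embryos -0.55 and -0.42. In *crg* mutants 7 of the 11 *pax6b* exon blocks with over 3 counts rose past 2-fold and all 11 were higher, as were all 14 such blocks of *pax6a*. The forebrain and eye gene *six3b* (chr12:27128337-27130993, plus strand) had the same order of libraries, at 208, 317, 479 and 398 normalised counts, and stayed within 2-fold at 0.61 and -0.27.

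Among the 8 factors, 3 rose and 2 fell in *crg* mutants, where 6.43% of the 19897 genes tested rose and 7.79% fell. Their median log2 fold change was 0.67, against 0.01 over all genes tested. In Cyp26-deficient embryos 0 rose and 2 fell, where 3.5% of genes rose and 2.59% fell, and the median was -0.34 against -0.03.

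**Figure D2:**
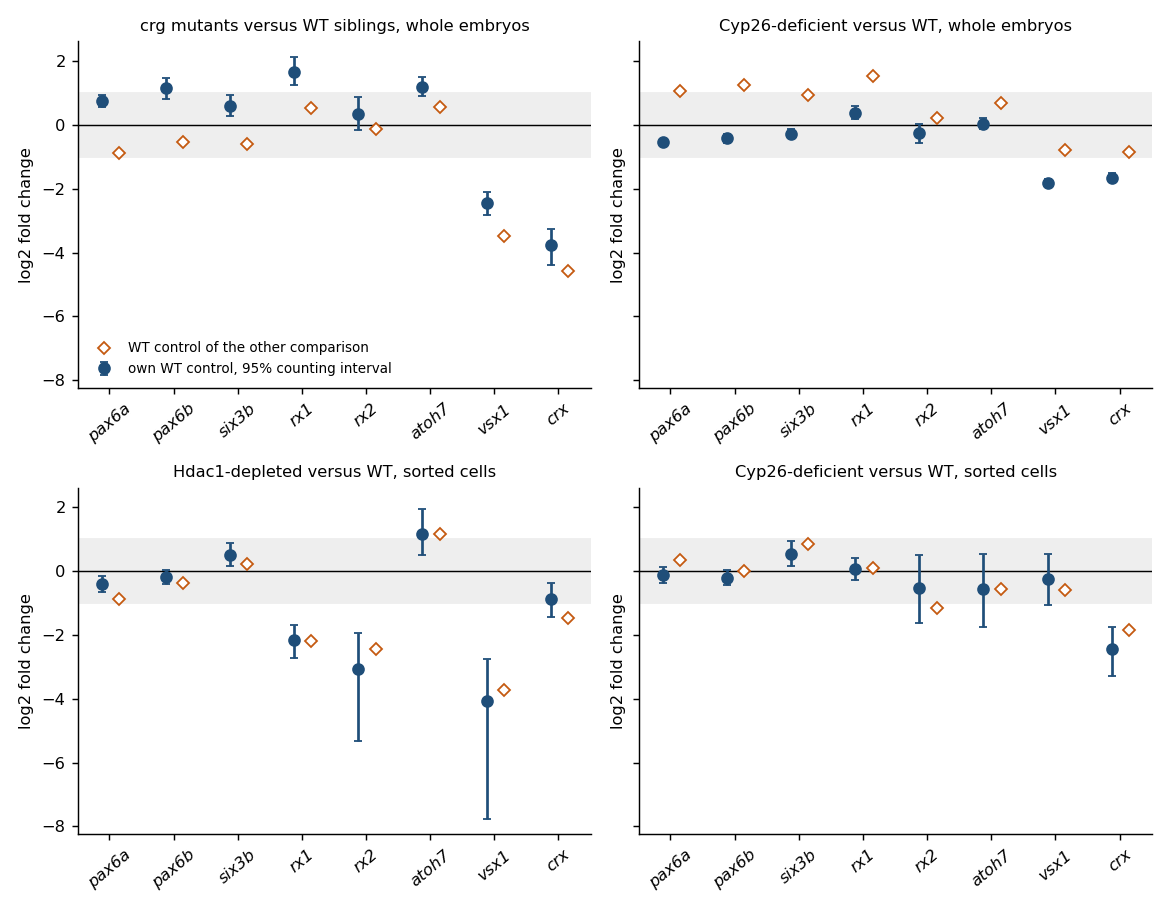
Log2 fold change of each factor in the 4 comparisons against its own WT control (filled circles, with the 95% counting interval) and against the WT library of the other pair of the same sample type (open diamonds, no interval drawn). The grey band marks changes within 2-fold. In *crg* mutants *vsx1* and *crx* stay below the band with either control, whereas the circles above the band are not matched by diamonds there.

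The rises in *crg* mutants passed 2-fold only against the WT sibling library. The 2 WT whole-embryo libraries differed from each other past 2-fold in 25% of the genes tested, and 14.9% were lower in WT siblings than in the WT control for Cyp26. Among the 8 factors 5 were so lower, namely *pax6a*, *pax6b*, *rx1*, *vsx1* and *six3b*, at -1.63, -1.68, -1.15, -1.04 and -1.20 on the log2 scale. Against the WT control for Cyp26, where 12.2% of all genes rose and 16.6% fell, *crg* mutants had 0 factors raised and 2 lowered. With that control *pax6b* turned to -0.53, *pax6a* to -0.88, *six3b* to -0.59 and *rx2* to -0.12. The rise of *rx1* became 0.53 (interval, 0.27 to 0.78) and that of *atoh7* became 0.56 (0.36 to 0.77). Both were within 2-fold, with intervals above no change. The fall of *crx* was then 23.7-fold and that of *vsx1* 11.2-fold. Conversely, Cyp26-deficient embryos set beside the WT siblings of *crg* had 3 factors raised, *pax6a* at 1.08, *pax6b* at 1.26 and *rx1* at 1.53, and none lowered. Of all genes 13.8% rose and 9.36% fell with that control. The values of *six3b*, *rx2*, *vsx1* and *crx* were 0.93, 0.22, -0.77 and -0.85. The falls of *vsx1* and *crx* in Cyp26-deficient embryos thus passed 2-fold only against their own WT control. The 8 neuron markers, whose sum was 11424 normalised counts in WT siblings, 15787 in *crg* mutants, 33291 in the WT control for Cyp26 versus 26760 in Cyp26-deficient embryos, followed the same order as *pax6a*, *pax6b* and *six3b*, and none was at 0. The part of neural tissue content in these values was not tested.

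Within a library, the make-up of the counts on the 8 factors does not depend on scaling. The pair *vsx1* and *crx* took 44.99% of them in WT siblings and 37.5% in the WT control for Cyp26, but 5.34% in *crg* mutants (95% exact interval, 4.42 to 6.38) and 18.6% in Cyp26-deficient embryos. The 2 WT libraries differed in this share beyond counting error (intervals, 42.5 to 47.5 and 36.4 to 38.5), and both deficient libraries lay below them. The share of *rx1* was 3.76% and 3.65% in the 2 WT libraries, 10.95% in *crg* mutants and 7.92% in Cyp26-deficient embryos, and that of *atoh7* was 8.05%, 5.49%, 16.9% and 9.34% in WT siblings, the WT control for Cyp26, *crg* mutants and Cyp26-deficient embryos. A share rises in some genes whenever it falls in others, so these shares are not separate measurements. The pair *vsx1* and *crx* joins the factors that fell in both whole-embryo comparisons above. Its lower share therefore repeats those falls and is no separate support for them.

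**Figure D3:**
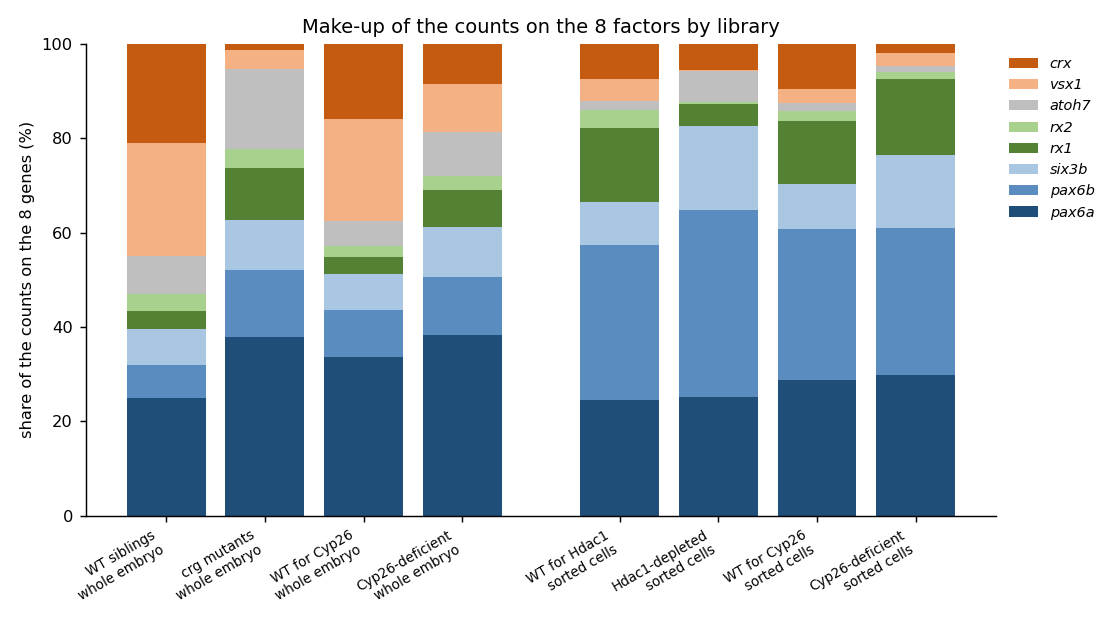
Share (%) of the counts on the 8 factors that each took, stacked to 100% for each of the 8 libraries. The 2 orange segments, *vsx1* and *crx*, make up 44.99% and 37.5% in the WT whole embryos and 5.34% in *crg* mutants.

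Per kilobase of merged exon, *vsx1* had the highest level of the 8 factors in both WT whole-embryo libraries, at 409 and 841 normalised counts per kb, and *atoh7* the highest in *crg* mutants, at 485, and in Cyp26-deficient embryos, at 336. In *crg* mutants *crx* was last of the 8, at 17.3 per kb, where it had been the second in WT siblings, at 241. In Cyp26-deficient embryos *atoh7* and *pax6a*, at 336 and 317 per kb, were neighbours in this order, and in the absence of replicates whether such neighbours differ cannot be tested.

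Other genes of the photoreceptor lineage also fell in *crg* mutants. Of 10 photoreceptor factors, 4 fell and 1 rose, where 7.79% of all genes fell and 6.43% rose, with a median of -0.51 against 0.01 over all genes. The orthodenticle gene *otx5*, active in pineal and retina, had 34 counts in *crg* mutants against 193 in WT siblings (log2 fold change, -2.82). The cone opsin regulator *six7* had 26 against 144 (-2.78), and *nr2e3*, a nuclear receptor of rods, had 32 against 156 (-2.60). The rod factor *nrl* had 0 counts against 12, at least 5.07-fold lower with 0 counts set to the floor of 3. The gene counted as raised was *rx3*, which acts earlier in optic vesicle formation, with 10 counts against 3 and an interval that includes no change (log2, -0.56 to 3.90). With the WT control for Cyp26 in place of the WT siblings, a setting chosen after seeing the data, 7 of the 10 fell and these 4 were among them, while *rx3* was no longer raised. Of all genes 16.6% fell and 12.2% rose with that control, and the median of the 10 was -1.66.

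Genes that such factors control were counted next. Of 22 opsin and phototransduction genes with enough counts, of 28 found, 15 fell and 1 rose in *crg* mutants, where 7.79% of all genes fell and 6.43% rose, and their median was -2.11. Rod opsin *rho* had 1 count against 200 in WT siblings, at -7.22 on the log2 scale (interval, -13.3 to -5.49). That 1 count lies under the floor of 3, so the size of the *rho* fall is not resolved. The ultraviolet cone opsin *opn1sw1* had 0 against 24, at least 10.1-fold lower, and the cone arrestin *arr3a* 5 against 86 (-4.26). The smallest falls of genes with over 20 counts were those of *gngt2a* (31 against 69, -1.48), *gnat2* (9 against 22, -1.56) and *pde6c* (11 against 37, -2.02), which encode cone transducin and phosphodiesterase subunits. The blue cone opsin *opn1sw2*, named here after its values were seen as the 1 gene that rose, had 16 counts against 5. With the other WT control, where 16.6% of all genes fell and 12.2% rose, 13 fell and 4 rose, at a median of -1.37. With both controls 10 genes fell.

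In Cyp26-deficient embryos 2 of the 10 photoreceptor factors fell, *otx5* with 429 counts against 1165 (-2.06) and *six7* with 440 against 700 (-1.29), and 0 rose, while *nr2e3* was at -0.52. Of the 22 opsin and phototransduction genes 7 fell and 0 rose, where 2.59% of all genes fell and 3.5% rose, with a median of -0.41 against -0.03 over all genes. Here *rho* had 16 counts against 133 (-3.52) and the recoverin gene *rcvrna* 35 against 65 (-1.46), and the smallest falls were those of *sagb* (-1.05), *rcv1* (-1.17) and *pde6h* (-1.34). The 2 WT controls differed for these genes too, with *rho* at 359 normalised counts in WT siblings and 103 in the WT control for Cyp26. With the other WT control, where 9.36% of all genes fell and 13.8% rose, 0 of the 10 photoreceptor factors fell and 3 rose. Of the 22 opsin and phototransduction genes 14 fell and 3 rose with that control. The WT siblings were themselves past 2-fold above the WT control for Cyp26 in 10 of these 22 genes and below it in 3. Over all genes 25% differed past 2-fold between these controls, in either direction.

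**Figure D4:**
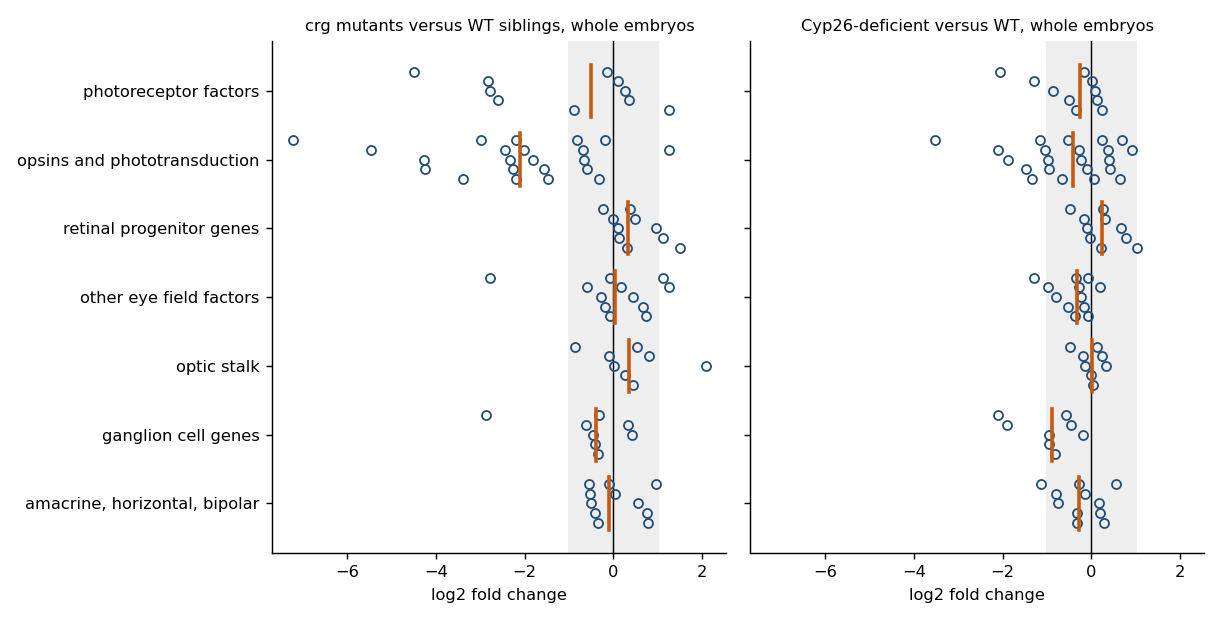
Log2 fold change of every tested gene of 7 retinal gene lists (open circles) with the list median (orange bar), for *crg* mutants on the left and Cyp26-deficient embryos on the right, each against its own WT control. The grey band marks changes within 2-fold, and height within a row only separates the circles. The opsin and phototransduction median lies at -2.11 in *crg* mutants and at -0.41 in Cyp26-deficient embryos.

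For lists of other retinal cells the count in *crg* mutants depended on the control. Against the WT siblings, where 7.79% of all genes fell and 6.43% rose, 2 of 10 retinal progenitor genes rose and 0 fell, with a median of 0.34. Among them the Notch receptor gene *notch1a* had 23 counts against 8 (log2 fold change, 1.13; interval, -0.03 to 2.55), and it was not raised past 2-fold against the other WT control. Of 12 further eye field factors *hmx1* (1.12) and *rx3* were raised and *six7* fell, and of 8 optic stalk and ventral retina genes only *vax2* passed 2-fold, with 13 counts against 2. Of 8 ganglion cell genes only *pou4f3* passed it, falling to 2 counts from 15, and of 11 amacrine, horizontal and bipolar cell factors 0 passed. Against the WT control for Cyp26, 16.6% of all genes fell and 12.2% rose. There 6 of the 8 ganglion cell genes fell (median, -1.80), as did 8 of the 11 amacrine, horizontal and bipolar cell factors (-1.18). Of the 12 further eye field factors 6 fell (-0.98), as did 3 of the 8 optic stalk genes, and 0 rose in any of these lists. Of the 10 retinal progenitor genes 2 fell, near the share over all genes, and 1 rose. The WT siblings themselves were past 2-fold below that control in 14.9% of all genes. They were so in 4 of the 8 ganglion cell genes and 9 of the 11 amacrine, horizontal and bipolar cell factors. The same held for 8 of the 12 further eye field factors, 3 of the 8 optic stalk genes and 4 of the 10 retinal progenitor genes. Counts against that control therefore cannot decide whether the fall was particular to the photoreceptor lists, and this was not tested. Against the WT siblings, where 7.79% of all genes fell and 6.43% rose, 6 of 14 lens genes fell and none rose. The same counts held for the 14 pigment epithelium and melanin genes. The lens list summed to 8086 normalised counts in WT siblings and 2663 in *crg* mutants, with *hsf4* at 0 in the mutants, and the pigment list to 15587 and 7505, with none at 0. Their part in the values of the 8 factors was not tested.

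In Cyp26-deficient embryos, where 2.59% of all genes fell and 3.5% rose, the ganglion cell genes *pou4f2* (330 counts against 920, -2.09) and *pou4f3* (22 against 57, -1.90) fell. The median of their list was -0.89. Of the retinal progenitor genes *notch1a* rose to 203 counts from 64 (1.03), of the further eye field factors only *six7* passed 2-fold, and of the amacrine, horizontal and bipolar cell factors only *tfap2b* did (-1.13). None of the 8 optic stalk genes passed it. Of 14 lens genes *hsf4* fell (-1.20), and of 14 pigment genes *rlbp1a* did (-1.21). Against the WT siblings of *crg*, where 13.8% of all genes were higher and 9.36% lower, 3 of the 12 further eye field factors, 6 of the 11 amacrine, horizontal and bipolar cell factors and 3 of the 8 optic stalk genes were raised and none of these lowered, and the ganglion cell median turned to 0.17.

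In the sorted cells every factor had over 3 counts in every library, except *vsx1*, with 2 counts in Hdac1-depleted cells, and *pax6b* was the highest per kilobase in all 4, at 131 to 170 normalised counts per kb. The 2 WT sorted libraries did not differ past 2-fold in any of the 8 factors, where 15.3% of the 20053 genes tested did. Neuron markers were present in the sorted libraries at a summed 8290 to 17492 normalised counts, with none at 0, beside the cardiac and pharyngeal markers. Whether the retinal factors came from *nkx2.5*:ZsYellow+ cells or from other cells in the gate was not tested.

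Hdac1-depleted sorted cells had 3 factors lowered and 1 raised, where 12.7% of genes fell and 12.4% rose, and their median was -0.63 against -0.01. For *rx1* the Hdac1-depleted cells had 39 counts against 191 in their WT control, and the Cyp26-deficient cells 159 against 131 in theirs. At 34.9 normalised counts the Hdac1-depleted library lay below the other 3, at 159 to 171. The fall was 4.46-fold (95% interval, 3.22 to 6.62; log2, -2.16), all 4 exon blocks were lower and 3 passed 2-fold. For *rx2* the Hdac1-depleted count was 4 against 45, beside 15 against 19 in the Cyp26 pair, a fall of 8.41-fold with a wide interval (3.82 to 40.1). For *vsx1* it was 2 against 55, beside 28 against 29, a fall of 16.8-fold in which the 2 counts left the interval at 6.76 to 217. Those 2 counts lie under the floor of 3, so the size of the *vsx1* fall is not resolved. The Hdac1-depleted library was the lowest of the sorted libraries for each of these 3 genes, and each remained past 2-fold against the other WT control.

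In the same cells *atoh7* rose to 54 counts from 25, beside 13 against 17 in the Cyp26 pair. The rise was 2.26-fold with an interval of 1.42 to 3.89, which includes 2-fold, and *atoh7* was no longer counted as raised where a mean of at least 50 normalised counts was needed. Of the remaining factors *pax6a* was at -0.40, *pax6b* at -0.17, *six3b* at 0.52 and *crx* at -0.87, with 46 counts against 91, and at -1.45 against the other WT control, where it passed 2-fold. The *crx* counts were uneven along the gene, with 32 against 45 in the first exon block, 8 against 3 in the second and 6 against 42 in the third.

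**Figure D5:**
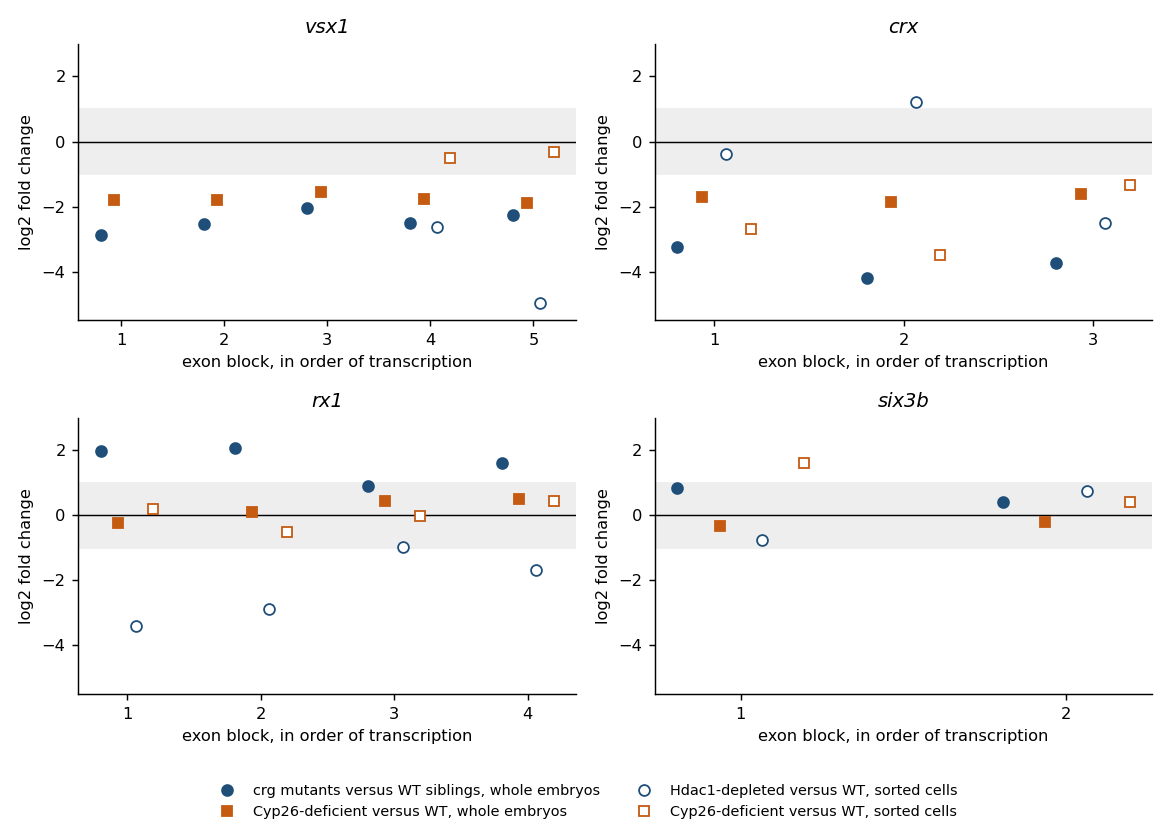
Log2 fold change of each exon block of *vsx1*, *crx*, *rx1* and *six3b* in the 4 comparisons, for blocks with over 3 counts in at least 1 of the 2 libraries, with filled symbols for whole embryos and open symbols for sorted cells. The grey band marks changes within 2-fold. All blocks of *vsx1* and *crx* lie below the band in both whole-embryo comparisons, whereas the Hdac1-depleted *crx* blocks range from -2.50 to 1.22.

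Hdac1-depleted sorted cells, where 12.7% of all genes fell and 12.4% rose, also had 4 of 11 further eye field factors tested lowered, *hmx1*, *lhx2b*, *six6a* and *six6b*, the last with 12 counts against 45 (-1.71). Of 8 optic stalk genes 1 fell and 0 rose, near the share over all genes, and their median was -0.11. The gene that fell was *vax1*, to 14 counts from 97 (-2.60). Of 10 amacrine, horizontal and bipolar cell factors tested 5 fell, among them *tfap2b* (-2.24), *foxn4* (-1.82) and *lhx9* (-1.63), and 0 rose. Of 8 photoreceptor factors tested *neurod* (-2.39) and *neurod4* (-3.34), which also act in brain neurons, fell and *nr2e3* rose to 242 counts from 14 (4.10). Markers of other tissues also passed 2-fold, in both directions. Of 8 neuron markers 4 fell and 0 rose, and their sum was 8290 normalised counts against 13551. Of 10 lens genes tested 7 fell and 0 rose. Over all 14 lens genes found, tested or not, the sum was 920 against 1796. Of these 14, *bfsp2*, *cryaa*, *foxe3*, *lim2.4* and *sox1a* were at 0 in Hdac1-depleted cells. Of 14 pigment genes 6 rose and 3 fell, with *rpe65a*, the retinoid isomerase of pigment epithelium, at 1811 counts against 55 (5.11) and the list sum at 10647 against 3112. Against the other WT control 15% of all genes fell and 15.6% rose. There 4 of the 11 eye field factors fell and 1 rose, and 8 of the 10 amacrine, horizontal and bipolar cell factors fell and 0 rose. Of the 8 neuron markers 5 fell and 1 rose, and of the 10 lens genes 5 fell and 2 rose. Of the 14 pigment genes 6 rose and 5 fell. The cardiac and pharyngeal sum was 47681 against 53183, with 2 of 13 markers lowered. The part of these other tissues in the values of *rx1*, *rx2* and *vsx1* was not tested.

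In Cyp26-deficient sorted cells 1 of the 8 factors fell and 0 rose, where 7.6% of genes fell and 8.84% rose, and the median was -0.23 against -0.004. The factor was *crx*, with 19 counts against 92 in the WT control, beside 46 against 91 in the Hdac1 pair. The Cyp26-deficient library was the lowest of the 4. The fall was 5.39-fold (95% interval, 3.39 to 9.72; log2, -2.43), and all 3 exon blocks passed 2-fold. The changes of *rx1* (0.07), *pax6a* (-0.11) and *pax6b* (-0.20) had intervals that included 0, as did those of *vsx1*, *rx2* and *atoh7*, which had 13 to 29 counts, so that a change of 2-fold was not resolved at this depth for *rx2* (interval, -1.63 to 0.50), *vsx1* (-1.06 to 0.54) and *atoh7* (-1.76 to 0.53). The forebrain gene *six3b* was at 0.55, with an interval of 0.17 to 0.94. Of 11 further eye field factors tested 4 fell and 1 rose, with a median of -0.12. Those that fell were *lhx2b* (-1.44), *otx2* (-1.35), *six3a* (-1.29) and *hmx1* (-2.26), and *rx3* rose, with 19 counts against 0. Of these only *hmx1* passed 2-fold against the other WT control as well, where 7.6% of all genes fell and 6.59% rose. Of 7 ganglion cell genes tested 2 rose and 0 fell, with a median of 0.48. Of 10 amacrine, horizontal and bipolar cell factors tested 2 rose and 3 fell, with a median of -0.51. Of the 8 neuron markers 1 rose and 1 fell, and their sum was 12256 against 17492. With the other WT control 1 of the amacrine, horizontal and bipolar cell factors rose and 0 fell, at a median of 0.32. Of the ganglion cell genes 1 rose and 0 fell there. Of the neuron markers 0 rose and 0 fell, at a median of 0.23, and their sum in that WT library was 13551.

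Over the 8 libraries, log2 levels centred within each table were most alike for *pax6a* and *pax6b* (Pearson r = 0.91, n = 8 libraries) and for *rx1* and *rx2* (r = 0.81), and most opposed for *vsx1* and *atoh7* (r = -0.81). For *vsx1* and *crx* r was 0.64. Among 18208 genes with enough counts in both tables, the mean profile of the 8 factors was most like those of *sp3b* and *hnrpr* (r = 0.99 for both), *ZNF281 (2 of 2)*, *crsp7* and *pogzb*. Single profiles were most like *pde7a* and *rgs6* for *pax6a*, *CEP120* and *MAP4 (2 of 3)* for *pax6b*, *psmd3* and *BRWD3* for *six3b*, *spsb4b* and *tbx5b* for *rx1*, *BX000999.5* and *FHDC1 (2 of 2)* for *rx2*, *ccdc6a* and *idua* for *atoh7*, *CR354432.1* and *col4a3* for *vsx1*, and *KLHL35* and *C6H2orf40 (2 of 2)* for *crx*, with r from 0.98 to 0.99. With so many genes and only 8 libraries that share tissue, controls and scaling, these values describe the libraries and carry no p-value.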

How the data were processed

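RNA was sequenced from whole embryos, single-end and stranded, and from sorted cells, paired-end. The authors used Strand NGS with the Zv9 assembly (danRer7). They deposited expected counts of genes and exons, which need not be whole, in 1 table per sample type. The submitters' processing notes name DESeq, with no version. Read filters and the counting of strand are not given in the sources used here. The columns of the whole-embryo table are headed by abbreviations rather than sample titles and were assigned by name. Expected counts were rounded. The tables list the same 31172 genes, which were matched by position and strand, since 31151 carried the same name in both.

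Each table was scaled separately with median-of-ratios size factors from DESeq2 1.42.0 under R 4.3.3, so levels are compared only within a table. Log2 fold changes used a pseudocount of 1, and the intervals, 95% exact (Clopper-Pearson), used none and cover counting error only, since reads are not independent molecules. Genes with a mean of at least 10 normalised counts were called past 2-fold without p-values. For a lower bound, counts at or under 3 were set to a floor of 3, and such bounds are printed only where the count was 0. The RNA of sorted cells was amplified, which adds error outside the intervals. *pax6a* overlaps an annotated 5S rRNA gene. The steps were tested on simulated counts with 200 changed genes. Alternatives were TMM factors (edgeR 4.0.16), total counts, factors from 2 libraries, pseudocounts of 0.1 and 10, no filter or a mean of 50, the other WT control, 1 exon block per gene, the interval's limit and 4-fold.

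The 8 factors and all gene lists were chosen with earlier results of these data known. All 8 factors are named, and of a list every gene past 2-fold may be, or, where over 6 passed, the 3 largest and 3 smallest changes among genes with over 20 counts. The values of some listed genes are not reported here. Some genes are in more than 1 list, such as *six7* and *rx3*. Python 3.11.15, numpy 2.4.6, pandas 2.3.3, scipy 1.17.1 and matplotlib 3.10.9 were used.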

Additional observations from a re-analysis of the deposited data

Results flagged for a closer look

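Under loss of Hdac1, *rx1* passed 2-fold in opposite directions in the 2 sample types. Its log2 fold change was 1.67 in whole *crg* mutants at 48 hpf (232 counts against 57) and -2.16 in sorted Hdac1-depleted cells at 28 hpf (39 counts against 191). The difference between the sample types was not tested. Stage, tissue, the means of Hdac1 loss with its *p53* MO, RNA amplification and single-end or paired-end sequencing differed together between them. These cannot be told apart. Against the other WT control the values were 0.53 and -2.19, so the rise is within 2-fold there and the fall is not.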

How the results depend on the processing

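No paired analysis was possible because each condition has 1 library and the labels give no replicate numbers; for the same reason no library could be left out of a group. The 4 comparisons gave 32 fold changes of single factors. All 32 stayed within their counting interval under TMM factors, factors from 2 libraries and a pseudocount of 0.1, 30 under a pseudocount of 10 and with 1 exon block per gene, 25 under total counts, and 14 with the other WT control, which reversed *pax6b* in *crg* mutants (to -0.53). That control also turned the sign of changes within 2-fold, those of *pax6a*, *six3b* and *rx2* in *crg* mutants, of *pax6a*, *pax6b*, *six3b* and *rx2* in Cyp26-deficient embryos and of *pax6a* in Cyp26-deficient sorted cells. No other setting turned a sign.

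In *crg* mutants the number of factors raised (3) was 0 with the other WT control, 1 by the interval's limit and 0 at 4-fold, and the median became -0.56 with the other control. In Cyp26-deficient embryos the other control gave 3 raised, 0 lowered and a median of 0.80, 4-fold gave 0 lowered, and total counts, which shift all genes by 0.25 there and by 0.16 in *crg* mutants, gave a median of -0.09. In Hdac1-depleted cells the 1 factor raised was 0 under a pseudocount of 10, a mean of at least 50, the interval's limit and 4-fold; the mean of at least 50 left 1 lowered, and the other control gave a median of -1.17. In Cyp26-deficient cells 2 were lowered with the other control, where 7.6% of all genes fell and 6.59% rose. The 5 factors apart between the WT whole-embryo controls were 2 with 1 exon block per gene or by the interval's limit and 0 at 4-fold, and between the WT sorted controls 1 was apart with 1 exon block per gene. The cause of these moves was not tested. In sorted cells *rx2*, *vsx1* and *atoh7*, with 2 to 55 counts a library, are limited by depth.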
